A study of Mus musculus with 8 samples.

Results

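The T-cell receptor alpha and delta locus is a stretch of mouse chromosome 14 in which the gene segments for 2 receptor chains lie interleaved. Its members were taken by name from the deposited expression table: every row named as a Trav, Traj, Trdv, Trdd or Trdj segment, and the constant genes Trac and Trdc. This gave 119 of the 16434 listed genes, namely 74 V segments, 1 D segment, 42 J segments and 2 constant genes. In GENCODE vM21, a mouse gene annotation, 200 genes carry such names, and the other 81 were not analysed here. All 119 have the annotated coordinates of a receptor segment or constant gene on chromosome 14 of build GRCm38/mm10, from Trav1 (chr14:52427928-52428876) to Trac (chr14:54220521-54224206).

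Messenger RNA was sequenced from bone marrow cells of C57BL/6 mice aged 8 to 10 weeks, with 1 library in each of 8 groups. The 4 leukaemias came from a study of mice with N-Myc overexpression, and each was sorted as GFP-positive cells. B220+ GFP+ cells came from acute lymphoblastic leukaemia of B cells (B-ALL) and CD3+ GFP+ cells from that of T cells (T-ALL). The acute myeloid leukaemia (AML) was sorted as Mac1+ Gr1+ GFP+ cells, and the acute undifferentiated one (AUL) as GFP+ cells without B220, CD3, Mac1 or Gr1. The normal cells came from normal bone marrow and were sorted with the same antigens: B cells (B220+), T cells (CD3+), myeloid cells (Mac1+ Gr1+) and lineage-negative cells (B220- CD3- Mac1- Gr1-). The labels do not say how GFP and N-Myc were introduced or how many animals gave the cells of a library. With 1 library per group there is no replicate check and no p-value, and the intervals below cover counting error only.

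A T cell builds its receptor by cutting and rejoining DNA. At this locus the RAG recombinase joins a V to a J segment for the alpha chain, or a V, D and J segment for the delta chain, and splicing then attaches the J segment to Trac or Trdc. Because the delta segments lie between the alpha V and alpha J segments, joining an alpha V to an alpha J segment removes the delta genes from that chromosome. The V segment sets some of the antigen-contacting loops of a chain. A population descended from 1 rearranged cell tends to share its V segment. Segments that carry DV in their name can join to either set of J segments.

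The V segments that led the 4 leukaemia libraries were Trdv1 and Trav21-dv12, which are neighbours towards the 3′ end of the V array. Their last coding exons are shown because nearly all V signal of a leukaemia came from 1 of them. Both run on the plus strand, Trdv1 at chr14:53881933-53882217 and Trav21-dv12 at chr14:53876465-53876752, and both sequences are those of GENCODE vM21 transcripts on GRCm38/mm10. The capitals mark the last in-frame cysteine codon, after which the joining to D or J segments takes place.
Trdv1: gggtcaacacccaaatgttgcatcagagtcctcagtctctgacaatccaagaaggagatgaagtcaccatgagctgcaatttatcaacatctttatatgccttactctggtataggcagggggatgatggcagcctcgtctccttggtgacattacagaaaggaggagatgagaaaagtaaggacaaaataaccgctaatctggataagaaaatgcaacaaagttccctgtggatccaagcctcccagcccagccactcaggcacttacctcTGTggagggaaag
Trav21-dv12: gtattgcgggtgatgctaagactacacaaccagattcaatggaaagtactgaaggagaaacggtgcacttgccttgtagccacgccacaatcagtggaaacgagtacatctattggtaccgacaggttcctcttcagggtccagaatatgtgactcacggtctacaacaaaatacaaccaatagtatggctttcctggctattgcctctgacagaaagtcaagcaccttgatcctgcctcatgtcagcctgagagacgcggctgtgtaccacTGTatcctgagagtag
Over their transcripts the nearest other annotated V segment was Trav18 for Trdv1, with 61.0% identity, and Trav2 for Trav21-dv12, with 61.9%. These identities are far below those of most of the array, since 57 of the 74 listed V segments were at least 95% identical to another annotated one and 17 were at least 99% identical. Reads of such copies can be split between segments, so levels of single copies are uncertain.

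The J segments that the results turn on are given with their in-frame Gly-X-Gly codons in capitals, the start of the strand that ends the joined V domain. Traj58 (chr14:54157280-54157342) was the first J alpha segment with signal in T-ALL and B-ALL, and Traj7 (chr14:54211470-54211528) the one with the most fragments in those libraries and in normal T cells. Traj49 (chr14:54168686-54168747) led in AUL, and Trdj1 (chr14:54123138-54123188) and Trdj2 (chr14:54136779-54136837) are the delta J segments of the annotation. All lie on the plus strand, from GENCODE vM21.
Traj58: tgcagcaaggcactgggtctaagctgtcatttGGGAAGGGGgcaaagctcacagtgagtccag
Traj7: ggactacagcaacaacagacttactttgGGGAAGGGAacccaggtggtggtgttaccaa
Traj49: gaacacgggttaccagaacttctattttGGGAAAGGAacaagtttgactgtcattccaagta
Trdj1: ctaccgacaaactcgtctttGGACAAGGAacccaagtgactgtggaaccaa
Trdj2: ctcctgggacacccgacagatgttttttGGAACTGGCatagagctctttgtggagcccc
The letters GGNNNNGGN were looked for in the coding frame of the segment's own strand only. They were found in 28 of the 33 listed Traj segments that have an annotated coding frame, and in 45 of 51 (88.2%) over the annotation.

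Levels are given in FPKM, fragments per kilobase of gene, scaled to the library's total, where a fragment is 1 read pair. The values rest on 33818608 to 52280284 fragments per library, recovered from the steps of the deposited values. A log2 ratio below is leukaemia minus normal on the log2(FPKM + 1) scale, and folds divide the 2 FPKM values directly. Over all members the libraries held 3288 fragments in B-ALL, 13389 in T-ALL, 604 in the AML library and 16964 in AUL, against 190 in normal B, 21151 in normal T, 55 in normal myeloid and 485 in normal lineage-negative cells. As a check of the labels, the 9 T-cell markers of a fixed list (Cd3d, Cd3e, Cd3g, Cd2, Cd5, Lck, Zap70, Lat and Bcl11b) summed to 338, 2348, 62.6 and 1950 FPKM in the B-ALL, T-ALL, AML and AUL libraries, against 192, 2876, 18.7 and 97.2 in normal B, normal T, normal myeloid and lineage-negative cells. In normal B cells 142 of the 192 FPKM came from Cd2. All 9 markers were above 1 FPKM in each leukaemia, so the AUL library, sorted as CD3-negative, held Cd3d at 276 FPKM. Among the 6 B-cell markers the sum was 1785, 5.88, 3.83 and 3.65 FPKM in those leukaemias, against 4168, 630.3, 36.6 and 649.7 in normal B, normal T, normal myeloid and lineage-negative cells, so the normal T library also held RNA of B-cell genes. It held NK-cell markers too, whose 8 genes summed to 54.0 FPKM in T-ALL against 1131 in normal T cells, and basophil and mast cell markers, whose 6 genes summed to 1.80 against 568. In these bulk samples, fewer cells of a type and less RNA per cell cannot be told apart.

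Each leukaemia library had 1 V segment far above the rest, whereas the normal T library held 73 of the 74, at up to 24.9 FPKM. At 10 FPKM or more stood 1 V segment in B-ALL, 1 in T-ALL, 1 in the AML library and 2 in AUL, against 11 in normal T cells and 0 in normal B, myeloid and lineage-negative cells. The segments with at least 1 fragment numbered 15, 18, 6 and 18 of 74 in the B-ALL, T-ALL, AML and AUL libraries, against 8, 73, 10 and 30 in normal B, normal T, normal myeloid and lineage-negative cells. Just inside the 10 FPKM threshold were Trdv1 (10.05) and Trav7-5 (10.2) in normal T cells, and just outside it was Trav8-1 (9.56) in the same library.

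**Figure D1:**
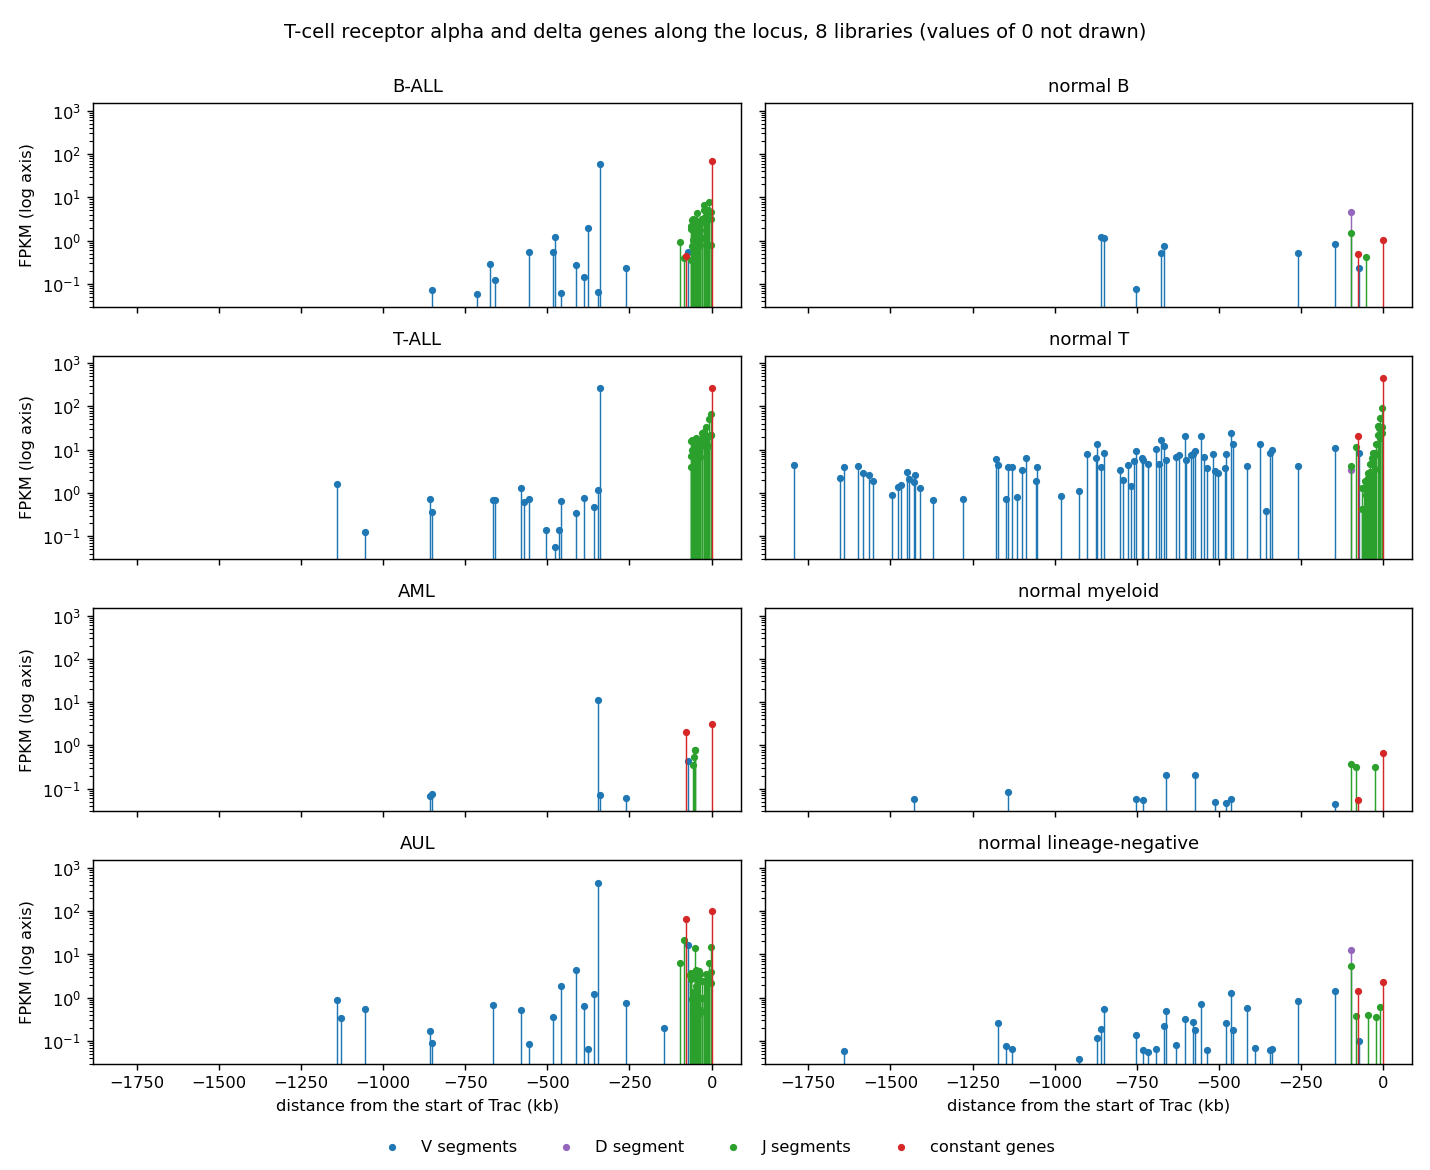
FPKM of each listed member (vertical log axis) against its distance in kilobases from the start of Trac, for the 4 leukaemia libraries on the left and the normal library of the same gate on the right; points are genes, coloured as V, D, J or constant. Single V segments stand out in the leukaemias (Trdv1 at 272 FPKM in T-ALL, Trav21-dv12 at 453 in AUL), while normal T cells have 73 of 74 V segments above 0.

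Trdv1, a V segment of the delta chain by name, had 58.9 FPKM in B-ALL, 272 in T-ALL, 0.0703 in the AML library and 0 in AUL, against 0 in normal B, 10.05 in normal T, 0 in normal myeloid and 0.0669 in normal lineage-negative cells. B-ALL and T-ALL were therefore high, and the other libraries were low apart from normal T cells. The segment was 27.1-fold higher in T-ALL than in normal T cells (3951 against 125 fragments; 95% counting interval 22.7 to 32.6). In B-ALL, with 849 fragments against 0 in normal B cells, it was at least 263-fold higher, taking 3 fragments in the normal library as the floor. Trdv1 made up 90.6% of the summed V FPKM in B-ALL and 96.2% in T-ALL. As a share of V fragments it had 89.0% in B-ALL (exact binomial interval 86.8 to 90.9%) and 95.9% in T-ALL (95.2 to 96.5%).

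Trav21-dv12, which can serve the alpha or the delta chain, was the leading segment of the other leukaemias. It had 0.0648 FPKM in B-ALL, 1.16 in T-ALL, 11.2 in the AML library and 453 in AUL, against 0, 8.26, 0 and 0.0625 in normal B, normal T, normal myeloid and lineage-negative cells. AUL thus had the highest value of any V segment in the 8 libraries, and AML had the same segment at a far lower level. In AUL it rested on 5519 fragments against 1 in lineage-negative cells, a ratio of 7258 with a counting interval of 1302 to 286725. In AML 171 fragments stood against 0 in normal myeloid cells, a difference of at least 70.4-fold, and in T-ALL the segment was lower than in normal T cells (18 against 110 fragments, log2 ratio -2.10). Its share of V fragments was 93.4% in AML (88.8 to 96.6%) and 93.2% in AUL (92.5 to 93.8%), and its share of V FPKM was 94.1% and 93.9% in those libraries.

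The V segments behind the leading one were much lower. In B-ALL they were Trav19 (1.93 FPKM, 37 fragments) and Trav16 (1.22 FPKM, 22 fragments), and T-ALL had Trav14d-3-dv8 (1.62 FPKM, 32 fragments) and Trav14-2 (1.32 FPKM, 19 fragments). Trav16 had 1 fragment in T-ALL. All 6 listed Trav14 copies had fragments in T-ALL (81 in all) and in AUL (61 in all), beside 2 of 6 in B-ALL and 696 fragments over 6 of 6 in normal T cells. AUL had a second segment over 10 FPKM, Trdv5 at 16.6 FPKM, and then Trav17 (4.44), Trav14-3 (1.85) and Trav20 (1.19). Trav18 was the 1 V segment without fragments in normal T cells, and it had 11 fragments in T-ALL and 7 in AUL.

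Trdv5 differs from the other V segments in that it lies 3′ of Trdc on the opposite strand, and 207 of its 438 annotated exon bases overlap those of Trdc. It had 10 fragments in B-ALL, 0 in T-ALL, 8 in the AML library and 246 in AUL, against 4, 139, 0 and 2 in normal B, normal T, normal myeloid and lineage-negative cells. In comparison, Trdc had 73, 0, 327 and 8528 fragments in the B-ALL, T-ALL, AML and AUL libraries, against 76, 2963, 11 and 240 in normal B, normal T, normal myeloid and lineage-negative cells. Whether reads were counted by strand is not stated, so Trdv5 reads and antisense Trdc reads cannot be told apart. Trdc also shares 96 exon bases with Gm43434 on the other strand.

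In normal T cells the V signal was spread over the array. The leading segment, Trav13-4-dv7, had 24.9 FPKM and 5.79% of the summed V FPKM, followed by Trav3-3 (20.7), Trav12-2 (20.6), Trav13-1 (17.1) and Trav14-3 (13.7). Its distance from the second was small, 300 against 266 fragments. The median over all 74 V segments was 4.29 FPKM. By position, the 35 alpha V segments nearer the J segments (Trav6-3 to Trav21-dv12) had a median of 6.82 FPKM and 8 at 10 FPKM or more, and the 35 farther ones (Trav1 to Trav4-2) a median of 2.96 FPKM and 1 at that level. C57BL/6 mice carry additional copies of part of the array, marked d and n in the names. The 14 d copies had a median of 1.64 FPKM, the 13 n copies 4.02 and the 43 segments with neither letter 5.72, and the near-identical copies among them carry the uncertainty given above. Summed over families of the same number, the 8 Trav13 segments led with 13.4% of the V FPKM and 15 of 24 families reached 10 FPKM.

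The D and J segments of the delta chain had few fragments, most of them in AUL, normal T and normal lineage-negative cells. Trdd2, a D segment of 16 bases, had 0 fragments in all 4 leukaemias, against 3 in normal B, 2 in normal T, 0 in normal myeloid and 9 in normal lineage-negative cells. Trdj1 had 0.915 FPKM in B-ALL, 0 in T-ALL, 0 in the AML library and 6.38 in AUL, against 1.47, 4.24, 0.375 and 5.29 in normal B, normal T, normal myeloid and lineage-negative cells. Trdj2 had 0.395 FPKM in B-ALL, 0 in T-ALL, 0 in the AML library and 21.6 in AUL, against 0, 11.5, 0.324 and 0.381 in normal B, normal T, normal myeloid and lineage-negative cells. AUL had the highest Trdj2 value, on 43 fragments against 1 in lineage-negative cells (ratio 56.5, counting interval 9.62 to 2285), whereas its 11 Trdj1 fragments stood against 12 there. These segments are so short that 1 FPKM rests on few fragments.

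The alpha J segments were expressed across the array in T-ALL, B-ALL, AUL and normal T cells, and hardly at all elsewhere. Of the 40 listed Traj segments, 38 had fragments in B-ALL, 38 in T-ALL, 4 in the AML library and 37 in AUL, against 1, 37, 1 and 3 in normal B, normal T, normal myeloid and lineage-negative cells. The fragments summed to 253, 1582, 6 and 212 in the leukaemias, against 1, 768, 1 and 3 in normal B, normal T, normal myeloid and lineage-negative cells. Traj7 led by fragments in B-ALL (20), T-ALL (130) and normal T cells (115), and Traj49 in AUL (29, against 15 for Traj1, the next). In FPKM, Traj7 had 7.91 in B-ALL, 51.0 in T-ALL, 0 in the AML library and 6.52 in AUL, against 0 in normal B, 52.7 in normal T, and 0 in the other normal libraries. Traj1 is annotated with only 29 bases, so its 67.0 FPKM in T-ALL and 92.3 in normal T cells rest on 84 and 99 fragments.

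**Figure D2:**
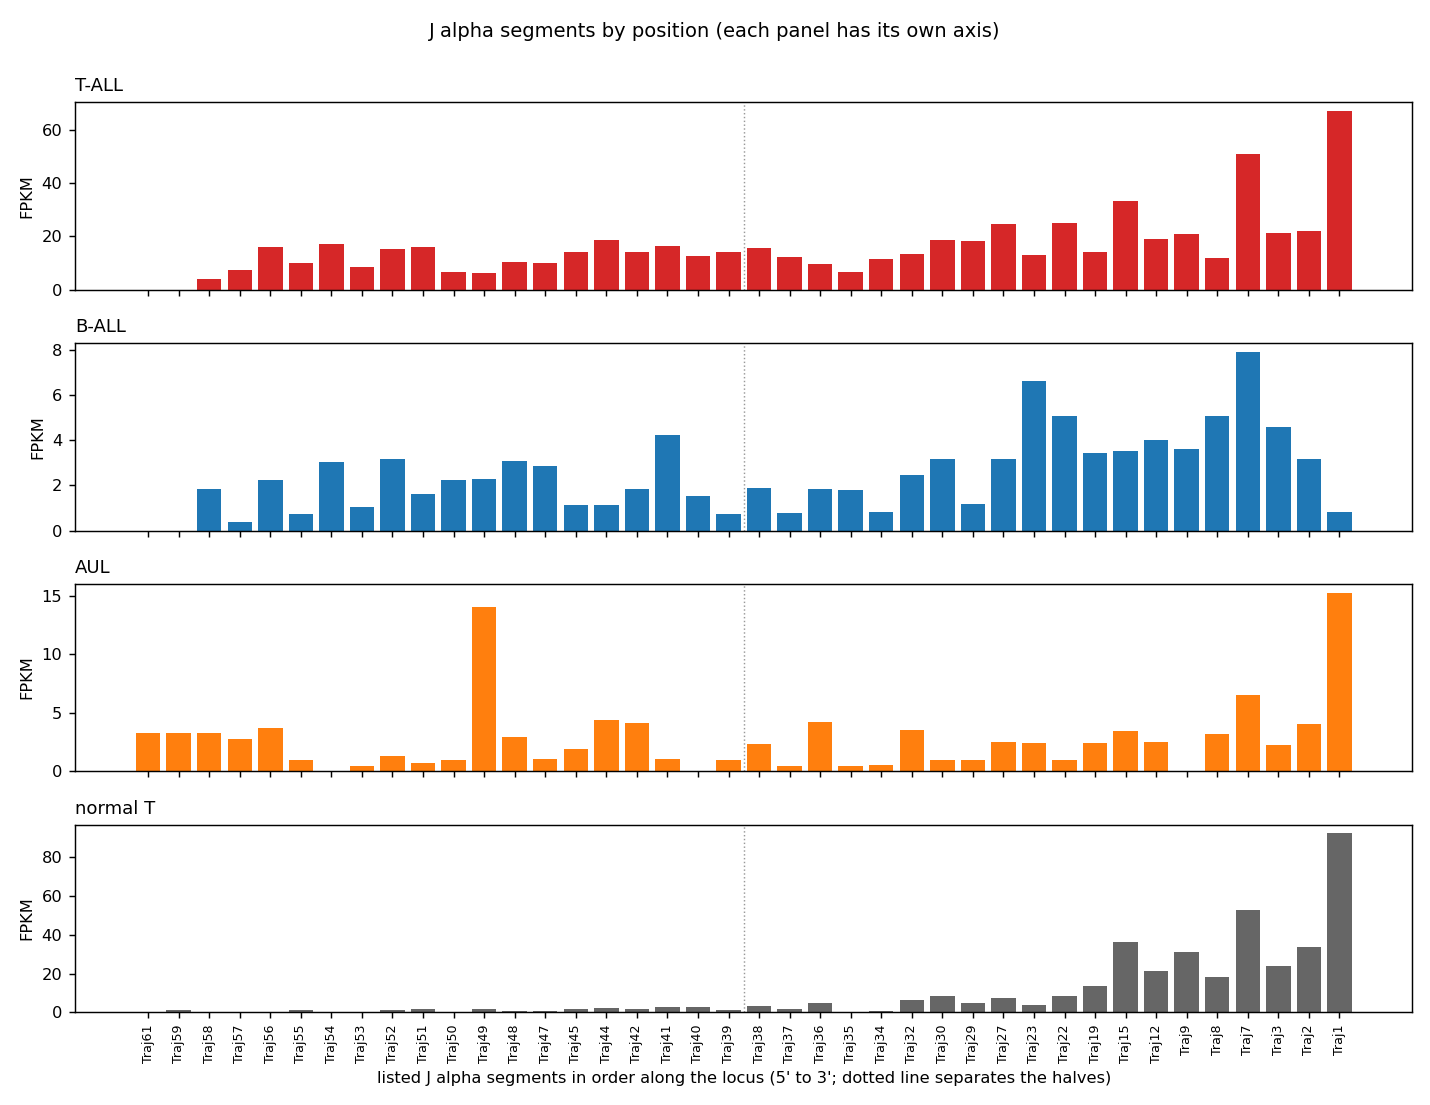
FPKM (vertical axis, its own scale in each panel) of the 40 listed J alpha segments in order along the locus, for T-ALL, B-ALL, AUL and normal T cells; each bar is 1 segment. Left of the dotted line the 20 segments are low in normal T cells (median 1.26 FPKM, against 8.40 to its right) and closer to the others in T-ALL (medians 11.4 and 18.3).

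The leukaemias and normal T cells differed in where along the J array the signal lay. The 20 segments nearer the V array (Traj61 to Traj39) held 35.6% of the J alpha fragments in B-ALL (exact binomial interval 29.7 to 41.8%), 35.4% in T-ALL (33.0 to 37.8%) and 50.9% in AUL (44.0 to 57.9%), against 6.77% in normal T cells (5.10 to 8.78%). The intervals of these leukaemias did not overlap that of normal T cells, and that of T-ALL lay within that of B-ALL. In T-ALL the median was 11.4 FPKM over these 20 segments and 18.3 over the other 20, and in normal T cells it was 1.26 and 8.40. The signal of normal T cells thus fell away steeply with distance from Trac, as the plot of J alpha segments by position shows, and T-ALL had a flatter profile.

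More than 1 stretch of the locus was empty in T-ALL. All listed V segments from Trav1 to Trav13d-4 had 0 fragments there, and each of them had fragments in normal T cells. Another such stretch is bounded by Trdv1 and Traj58. Between Trdv1 and Traj58 lie 275 kb with 9 listed members: Trdv2-2, Trdv4, Trdd2, Trdj1, Trdj2, Trdc, Trdv5, Traj61 and Traj59. All 9 had 0 fragments in T-ALL, against 8 of 9 detected with 3378 fragments in normal T cells. The bounds of this stretch were chosen after the values were seen. The same stretch held 90 fragments over 5 of 9 members in B-ALL, 336 over 3 in AML and 8856 over 8 in AUL, against 109 over 6 in normal B, 14 over 4 in normal myeloid and 308 over 7 in normal lineage-negative cells. The stretch from Trav1 to Trav13d-4 and the next one were also bounded after the values were seen. Between Trav21-dv12 and Trdj1, over 246 kb, lie Trdv1, Trdv2-2, Trdv4 and Trdd2. They had 13 fragments in AUL and 2 in AML, against 54 in normal lineage-negative and 1 in normal myeloid cells. Normal T cells had 365 there. Trdc and the J alpha segments, which lie beyond that stretch, were among the detected members of AUL.

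The balance of the alpha and delta constant genes ranged widely over the libraries. Trac, the alpha constant gene (ENSMUSG00000076928), had 69.4 FPKM in B-ALL, 264 in T-ALL, 3.09 in the AML library and 98.6 in AUL, against 1.04 in normal B, 456 in normal T, 0.681 in normal myeloid and 2.34 in normal lineage-negative cells. It was 66.6-fold higher in B-ALL than in normal B cells (2005 against 28 fragments, 46.0 to 101), 4.53-fold higher in AML than in normal myeloid cells (88 against 24, 2.86 to 7.44) and 42.2-fold higher in AUL than in lineage-negative cells (2247 against 70, 33.3 to 54.3). T-ALL had 0.578 times the level of normal T cells (7686 against 11383 fragments, 0.562 to 0.595), which is a log2 ratio of -0.79.

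Trdc, the delta constant gene (ENSMUSG00000104876, chr14:54142851-54148868), had 0.441 FPKM in B-ALL, 0 in T-ALL, 2.00 in the AML library and 65.2 in AUL, against 0.493 in normal B, 20.7 in normal T, 0.0544 in normal myeloid and 1.40 in normal lineage-negative cells. AUL was the highest and T-ALL the lowest of the 8. T-ALL had 0 fragments, which allows a level of up to 0.0180 FPKM (3 fragments), against 2963 in normal T cells, and was at least 1153-fold lower, while AUL was 46.7-fold higher than lineage-negative cells (8528 against 240 fragments, 41.1 to 53.3). In AML it was 36.7-fold higher than in normal myeloid cells (327 against 11, 20.3 to 74.3). B-ALL and normal B cells had 73 and 76 fragments, a ratio of 0.894 whose interval of 0.639 to 1.25 includes 1.

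**Figure D3:**
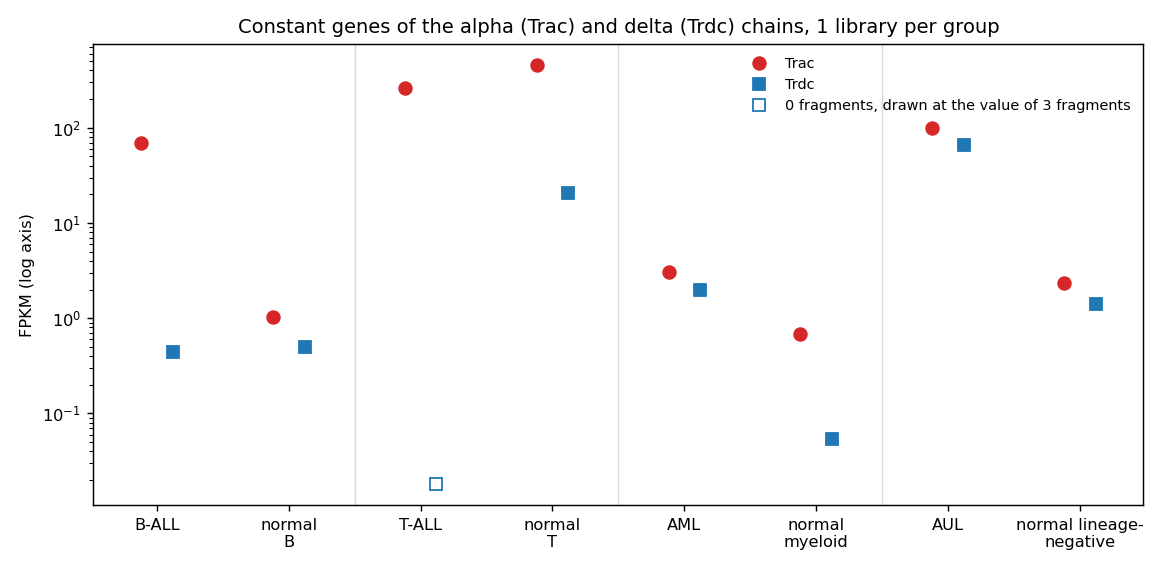
FPKM (log axis) of Trac (circles) and Trdc (squares) in the 8 libraries, each leukaemia left of the normal library of its gate; the open square is the 0 fragments of Trdc in T-ALL drawn at the level of 3 fragments. Trac and Trdc are close together in AUL (98.6 and 65.2) and AML (3.09 and 2.00) and far apart in B-ALL (69.4 and 0.441).

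The ratio of Trac to Trdc in FPKM was 157 in B-ALL, 1.54 in the AML library and 1.51 in AUL, and could not be formed in T-ALL. It was 2.11 in normal B, 22.0 in normal T, 12.5 in normal myeloid and 1.67 in normal lineage-negative cells, of which the myeloid value rests on 11 Trdc fragments. The leukaemias led by Trdv1 thus had the 2 constant genes far apart, and those led by Trav21-dv12 had them at similar levels.

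Each leukaemia was set against its normal library over the members that reached 1 FPKM in either, which were 110 of 119 for T-ALL, 40 for B-ALL, 39 for AUL and 3 for AML. A member counts as higher or lower at a difference of at least 1 in log2(FPKM + 1), with at least 1 FPKM in the higher library. In B-ALL, 36 of 40 members with enough signal were higher and 3 lower than in normal B cells, where 18.2% of all genes were higher and 21.9% lower. The median log2 ratio was 1.74, beside -0.02 over all genes tested. The higher ones were 3 V segments, 32 J segments and Trac. In AUL, 34 of 39 were higher and 3 lower than in lineage-negative cells (13.6% and 29.5% over all genes; median 1.92 beside -0.18), with 5 V segments, 27 J segments and both constant genes among the higher. In AML only 3 members had enough signal, and all 3, Trav21-dv12, Trac and Trdc, were higher (43.3% higher and 26.7% lower over all genes). Under median-ratio scaling 2 of them were, since the log2 ratio of Trac was 0.84 instead of 1.28. Over all genes 61.8% of the AML calls were higher, and 40.0% under that scaling. Members that reach 1 FPKM only in the leukaemia had to differ, so these counts describe the libraries and support nothing further.

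T-ALL had 28 of 110 members higher and 69 lower than normal T cells, where 22.1% of all genes were higher and 24.0% lower (median -1.82 beside 0.03). All 8 NK-cell, all 6 B-cell and all 6 basophil and mast cell markers were lower in T-ALL too, and their part in the differences from normal T cells was not tested. The directions divided by type of segment. Of the V segments 1 (Trdv1) was higher and 64 were lower, and of the J segments 27 were higher and 3 lower. The lower J segments were Trdj1, Trdj2 and Traj59, all of them between Trdv1 and Traj58. Of these, Traj59 rested on 3 fragments in normal T cells against 0 in T-ALL. Among the Traj segments nearer the V array 18 of 19 were higher, with a median log2 ratio of 2.52. Among the other Traj segments 9 of 20 were higher and 0 lower, with a median of 0.90. At 1 FPKM or more stood 66 V segments in normal T cells and 4 in T-ALL. Most V segments thus passed the filter only through normal T cells, and some Traj segments only through T-ALL. These counts describe the libraries and support nothing further.

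B-ALL and T-ALL shared their leading V segment, so their levels were set side by side. They also shared Traj58 as first J alpha segment, before which only Traj61 and Traj59 are listed. Traj7 led the J alpha segments in both, but it did so in normal T cells too. In B-ALL it had 20 fragments, against 17 for Traj23. B-ALL had 21.7% of the T-ALL level of Trdv1 (counting interval 20.1 to 23.3%), 26.3% of that of Trac (25.0 to 27.6%) and 16.1% of that of the summed Traj fragments (14.1 to 18.4%). The 8 members with at least 10 fragments in both ranged between 15.5% (Traj7) and 50.4% (Traj23), with a median of 21.6%, a range that this filter narrows. Outside it, Traj1 had 1 against 84 fragments and Trav14d-3-dv8 had 0 against 32 fragments. Others were higher in B-ALL than in T-ALL. Among them were Trdc with 73 against 0 fragments, Trav19 with 37 against 0 and Trav16 with 22 against 1. Trdv5 with 10 against 0 and Trav8-2 with 8 against 0 were further ones. The 9 T-cell markers ranged between 2.39% (Cd5) and 97.1% (Cd2), with a median of 13.2%. Cd2 was not confined to the T-cell libraries, with 142 FPKM in normal B cells against 63.6 in B-ALL. The beta constant genes were at 26.5% (Trbc2) and 11.3% (Trbc1), and the gamma constant genes at 2.00% (Tcrg-C4), 10.1% (Tcrg-C2) and 135% (Tcrg-C1; 55 against 41 fragments, 88.6 to 208%). Compared with normal B cells, 7 of the 9 T-cell markers were higher in B-ALL and 1 was lower. Over all genes 18.2% were higher and 21.9% lower. What part RNA of T-lineage cells had in the B-ALL values was not tested.

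AML and AUL shared Trav21-dv12. AML had 2.48% of the AUL level of that segment (2.11 to 2.88%), 3.07% of that of Trdc (2.74 to 3.42%) and 3.13% of that of Trac (2.50 to 3.87%). The 3 intervals overlapped one another. The T-cell markers ranged between 1.58% (Cd3g) and 6.05% (Lat), with a median of 2.76%. The 12 receptor partner genes, described below, with at least 10 fragments in both libraries ranged wider, up to 215% (Cd8b1), with a median of 2.87%. Trbc1 was at 7.65% and Tcrg-C2 at 7.26%, against 2.27% for Trbc2 and 2.40% for Tcrg-C4. Cd8b1 (43 against 16 fragments) and Cd4 (39 against 22, 82.0 to 251%) were above the AUL level. All 9 T-cell markers were above 1 FPKM in AML and 6 of them were higher than in normal myeloid cells. Over all genes 43.3% were higher and 26.7% lower in AML, and these shares depend on the scaling, as given above. Of the 10 neutrophil markers 2 were higher in AML than in normal myeloid cells, such as Mpo (2220 against 354 FPKM), and 8 were lower, such as Itgam, which encodes the Mac1 antigen of the gate (1.63 against 208 FPKM). The part of T-lineage RNA in the AML values was not tested.

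**Figure D4:**
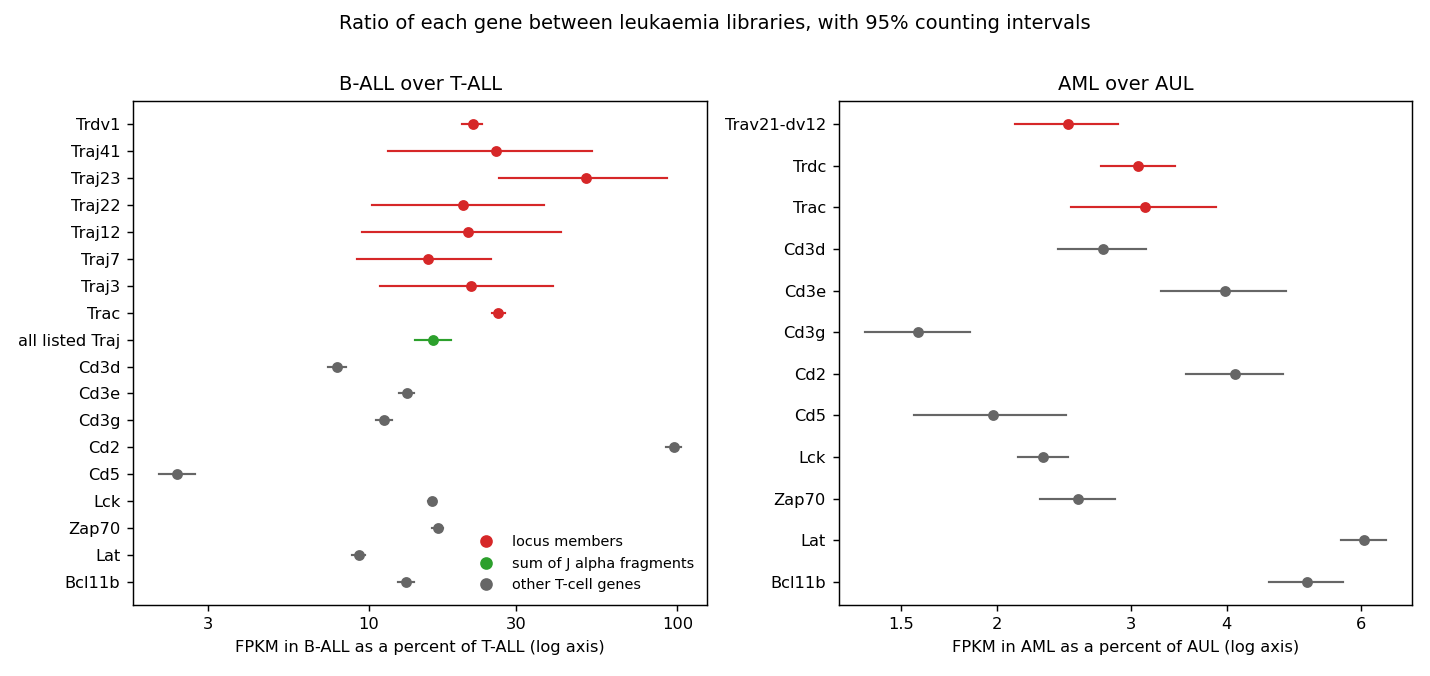
FPKM in B-ALL as a percent of T-ALL (left) and in AML as a percent of AUL (right), on log axes, for members with at least 10 fragments in both libraries (red), the summed J alpha fragments (green) and 9 T-cell markers (grey); lines are 95% counting intervals. The members drawn lie between 15.5% and 50.4% on the left and between 2.48% and 3.13% on the right; members under 10 fragments in either library are not drawn, and some of them lie outside these spans.

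Of the listed recombination genes, Rag1, Dntt and Polm were lower by the rule above in all 4 leukaemias, each against its normal cells. Polm had 56.1, 22.3, 2.87 and 13.5 FPKM in the B-ALL, T-ALL, AML and AUL libraries. It had 142, 46.1, 22.7 and 46.2 FPKM in normal B, normal T, normal myeloid and lineage-negative cells. Rag1, a subunit of the recombinase, had 5.84 FPKM in B-ALL, 0.00701 in T-ALL, 0.00358 in the AML library and 0.0134 in AUL, against 84.1, 12.9, 1.79 and 45.5 in normal B, normal T, normal myeloid and lineage-negative cells. Its partner Rag2 had 3.10 in B-ALL and 0 in the other leukaemias, against 5.36, 0.941, 0.145 and 4.001 in normal B, normal T, normal myeloid and lineage-negative cells. Dntt, which adds bases at the joins, had 0.356, 0.0441, 0 and 0.0846 FPKM in the B-ALL, T-ALL, AML and AUL libraries, against 35.2, 6.67, 2.54 and 67.3 in normal B, normal T, normal myeloid and lineage-negative cells. Of the 14 listed recombination genes, 1 was higher and 4 lower in B-ALL, 2 and 3 of 13 in T-ALL, 6 and 3 of 13 in AML, and 1 and 6 in AUL, each against the normal cells of its gate. Over all genes the shares were 18.2% and 21.9% in B-ALL, 22.1% and 24.0% in T-ALL, 43.3% and 26.7% in AML and 13.6% and 29.5% in AUL. The AML counts are thus near those shares. Xrcc5, the Ku80 end-binding protein, was higher in all 4 comparisons, with 26.9, 41.8, 7.05 and 42.8 FPKM in the B-ALL, T-ALL, AML and AUL libraries, against 5.46, 9.52, 0.666 and 3.64 in normal B, normal T, normal myeloid and lineage-negative cells.

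The partners of the alpha and delta chains include the beta and gamma chains, the CD3 chains and the co-receptors. Of 13 listed partner genes, 10 were higher and 3 lower in B-ALL, 3 higher and 4 lower in T-ALL, 8 of 10 higher in AML, and 10 of 11 higher and 1 lower in AUL, each against its normal cells. Beside the shares over all genes given above, the higher count in T-ALL is at the background of 22.1%, and those in B-ALL, AML and AUL are above 18.2%, 43.3% and 13.6%. Trbc2, which pairs as part of the beta chain with alpha, had 146, 549, 9.60 and 423 FPKM in the B-ALL, T-ALL, AML and AUL libraries, against 2.75, 787, 1.88 and 9.91 in normal B, normal T, normal myeloid and lineage-negative cells. The gamma chain is the partner of delta. Tcrg-C2, one of its constant genes, had 28.8, 285, 5.74 and 79.0 FPKM in the B-ALL, T-ALL, AML and AUL libraries, against 0.0274, 62.9, 0.0419 and 0.959 in normal B, normal T, normal myeloid and lineage-negative cells. It was thus higher in T-ALL than in normal T cells, whereas Trdc had 0 fragments in T-ALL. The gamma constant genes did not all go the same way. In T-ALL against normal T cells, Tcrg-C4 was higher (198 against 37.5 FPKM) and Tcrg-C1 was lower (1.03 against 45.7 FPKM). Tcrg-C1 was lower in AUL than in lineage-negative cells too (0.128 against 2.70 FPKM). The co-receptor gene Cd8a had 0.243, 0, 0.123 and 5.55 FPKM in the B-ALL, T-ALL, AML and AUL libraries, against 4.57, 238, 0.0855 and 0.603 in normal B, normal T, normal myeloid and lineage-negative cells. Cd4, the other co-receptor gene, had 26.8 FPKM in T-ALL against 75.3 in normal T cells, and B-ALL had 0.533 against 85.5 FPKM in normal B cells. All 5 plasmacytoid dendritic cell markers were lower in B-ALL too, with Siglech at 1.59 FPKM against 361 in normal B cells. Over all genes 21.9% were lower. The part of plasmacytoid dendritic cells in the Cd4 value was not tested.

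Among 14 listed transcription factors known to act on T-cell receptor loci or T-cell identity, 3 were higher and 3 lower of 11 in B-ALL, 3 and 5 of 14 in T-ALL, 5 and 3 of 12 in AML, and 7 and 5 of 13 in AUL. In AML these counts are near the shares over all genes (43.3% and 26.7%), as is the higher count in T-ALL (22.1%). The other shares over all genes were 24.0% lower in T-ALL, 18.2% higher and 21.9% lower in B-ALL, and 13.6% and 29.5% in AUL. Tcf7, a factor of early T-cell development, had 85.0, 882, 15.9 and 523 FPKM in the B-ALL, T-ALL, AML and AUL libraries, against 6.81, 450, 0.872 and 9.74 in normal B, normal T, normal myeloid and lineage-negative cells. T-ALL and AUL were the highest of the 8 libraries. Zbtb16, the factor PLZF of innate-like T cells, had 98.4 FPKM in T-ALL against 3.98 in normal T cells (log2 ratio 4.32), and between 0.161 and 0.361 in the other leukaemias. Id3, an inhibitor of E proteins that is induced by receptor signals, had 92.0, 151, 1.79 and 107 FPKM in the B-ALL, T-ALL, AML and AUL libraries, against 81.5, 46.8, 1.75 and 13.3 in normal B, normal T, normal myeloid and lineage-negative cells.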

How the data were processed

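Per the labels' protocols, oligo(dT)-selected RNA was converted to cDNA with random primers and sequenced as paired 150-base reads, and reads were compared with mouse build mm10. The authors deposited FPKM values for 16434 genes. The submitters' processing notes name STAR, HTSeq and edgeR, without version or role. The rule by which genes entered the table and the use of strand are not given in the sources used here. HTSeq by default leaves out fragments that overlap 2 genes; whether that setting applied is not stated, and fragments across V, J and constant joins may be missing.

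Library totals were recovered as the step on which FPKM times mean transcript length (GENCODE vM21) gives whole fragments. All member values above 0 came out whole (100% within 0.02 of a fragment), and 93.6 to 94.3% of those of single-transcript genes did. Comparisons used log2(FPKM + 1) with a threshold of 1, and the higher library had to reach 1 FPKM. Intervals of folds are exact 95% intervals for a ratio of 2 Poisson counts, shares have exact binomial intervals, and a count of 0 allows 3 fragments. The steps were tested on simulated data. Identity between V segments was computed with edlib 1.3.9.post1, and the rest with numpy 2.4.6, pandas 2.3.3, scipy 1.17.1 and matplotlib 3.10.9.

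Named members were the constant genes, the D and delta J segments, and in each library the 5 highest V and 5 highest J alpha segments; others are named for their position or after their values were seen. The members and lists were chosen with earlier results of these data known. Pseudocounts, filters, thresholds and scalings were varied. With 1 library per group no test was possible.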

Additional observations from a re-analysis of the deposited data

Results flagged for a closer look

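Members that were higher in 1 leukaemia and lower in another, each against the normal cells of its gate, are given here by their log2 ratios; the differences between the comparisons were not tested. Trdc had -4.44 in T-ALL, 1.51 in the AML library and 4.79 in AUL. Trav21-dv12 had -2.10 in T-ALL, 3.61 in the AML library and 8.74 in AUL. Between AUL and T-ALL, 5 other members went in opposite directions: Trdj2 with 4.03 in AUL and -3.64 in T-ALL, Trdv5 with 3.997 and -3.26, Trav17 with 1.77 and -1.96, Trav14-3 with 1.28 and -3.15, and Traj59 with 2.10 and -1.19. The Traj59 ratios rest on 7 fragments in AUL against 0 in lineage-negative cells, and on 3 in normal T cells against 0 in T-ALL. A count of 3 is what is allowed here for a 0, so its T-ALL direction is uncertain. Between B-ALL and T-ALL, Trav16 had 1.15 in B-ALL and -3.12 in T-ALL, and Trav19 had 1.55 and -3.86. The T-ALL ratios share normal T cells as their reference, in which 73 of 74 V segments had fragments.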

How the results depend on the processing

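Of 104 recomputed values, 22 moved beyond counting error or, for counts, by over 1.5 times, and none changed direction. The other 82 include values with wide counting intervals, such as the top V share of normal myeloid cells (24.0%, or 47.7% by family, on 17 V fragments). Median-ratio scaling ended the AML call of Trac (log2 ratio 0.84, leaving 2 of 3 members higher). At a threshold of 1 FPKM the V segments numbered 3 in B-ALL, 4 in T-ALL, 5 in AUL, 2 in normal B, 66 in normal T and 2 in normal lineage-negative cells, and at 20 FPKM 0 in AML, 1 in AUL and 3 in normal T cells, since fewer or more segments pass by construction. By fragments the top V share was 93.2% in AUL and 4.998% in normal T cells, and by family 36.1% in normal B and 13.4% in normal T cells. With a pseudocount of 0.1 the log2 ratio of Trac was 5.93 in B-ALL, 2.03 in AML and 5.34 in AUL, and that of Trdc was -7.70 in T-ALL, 3.77 in the AML library and 5.45 in AUL, since a smaller pseudocount stretches ratios of low values. In T-ALL, median-ratio scaling gave -0.96 for Trac and -4.41 for Trdc, and a common FPKM sum gave -4.46 for Trdc. Median-ratio scaling moved the median of all genes to -0.13 for B-ALL, -0.14 for T-ALL, -0.35 in the AML comparison and 0.02 in AUL, against -0.02, 0.03, 0.56 and -0.18 as deposited. Members with few fragments are limited by depth. No replicate could be left out, and no paired analysis was possible because each group has 1 library.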
